A study of Homo sapiens with 2 samples.

Results

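Genes for 9 proteins that bind acetylated lysine on histones were followed in HCT116 cells given an siRNA against KAT7 or a control siRNA. They were taken by gene symbol from a fixed list of 9, and each symbol matched 1 row among the 60623 named rows of the count table. By the domain annotation deposited with the counts, BRD2, BRD3, BRD8, BPTF and CECR2 encode a bromodomain, and MLLT1, MLLT3, YEATS2 and YEATS4 encode a YEATS domain. HCT116, a line of epithelial cells grown from a human colon cancer, is labelled wild type in both groups. RNA-seq was deposited for 1 culture that received a non-specific siRNA (siControl) and 1 that received an siRNA against KAT7 (siKAT7), both delivered with a Lipofectamine reagent. With 1 library per group no test between the groups was possible, and the effect of the siRNA cannot be told apart from the difference between any pair of cultures. The 95% intervals below cover counting error only.

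Acetyl-lysine readers carry a pocket that recognises acetylated histone tails and bring other proteins to them. The bromodomain is a bundle of helices found in BET proteins such as BRD2 and BRD3, in remodelling subunits and in acetyltransferases themselves. The YEATS domain binds acetyl-lysine and also longer acyl marks such as crotonyl-lysine. KAT7, also called HBO1, is a MYST family acetyltransferase that places acetyl groups on histones H3 and H4, the kind of mark these proteins read. The comparison shows whether transcripts of the readers differed in the culture given the siRNA against this writer.

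No reader was 1.5-fold higher or lower in siKAT7. By the rule used throughout, a gene is called when its log2 ratio (siKAT7 over siControl) is at least 0.58 in size and its interval excludes 0. Of 9 readers 0 were called higher and 0 lower, beside 3.91% of 13217 genes called higher and 3.91% called lower. The 9 log2 ratios ran from -0.31 for BRD8 to 0.26 for BPTF, with 4 above 0 and 5 below. Of all 13217 genes 50.7% had a ratio below 0. These shares of all genes stand beside the counts of every list below. Their median was -0.04, beside -0.0049 over all 13217 genes. For 8 of the 9 the whole interval lay inside the 1.5-fold limits, and the exception was MLLT3, which had few counts. Over all genes 66.3% had such an interval. With total-count scaling it was 7 of 9 readers and 63.9% of all genes, and the calls over all genes were 359 higher and 838 lower in place of 517 each, while those of the readers stayed at 0. Every reader passed the filter of a mean of 1 CPM (counts relative to the TMM-scaled library total), and each lay inside the central 95% of log2 ratios of genes at a like CPM. Intervals are narrower for genes with more counts, and 7 of the 9 readers averaged at least 10 CPM. With TMM, 1.46% of genes from 10 to 30 CPM were called higher and 1.68% lower. From 30 to 100 CPM it was 0.82% and 0.21%. The shares of all genes above are thus not matched to the readers for depth.

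**Figure D1:**
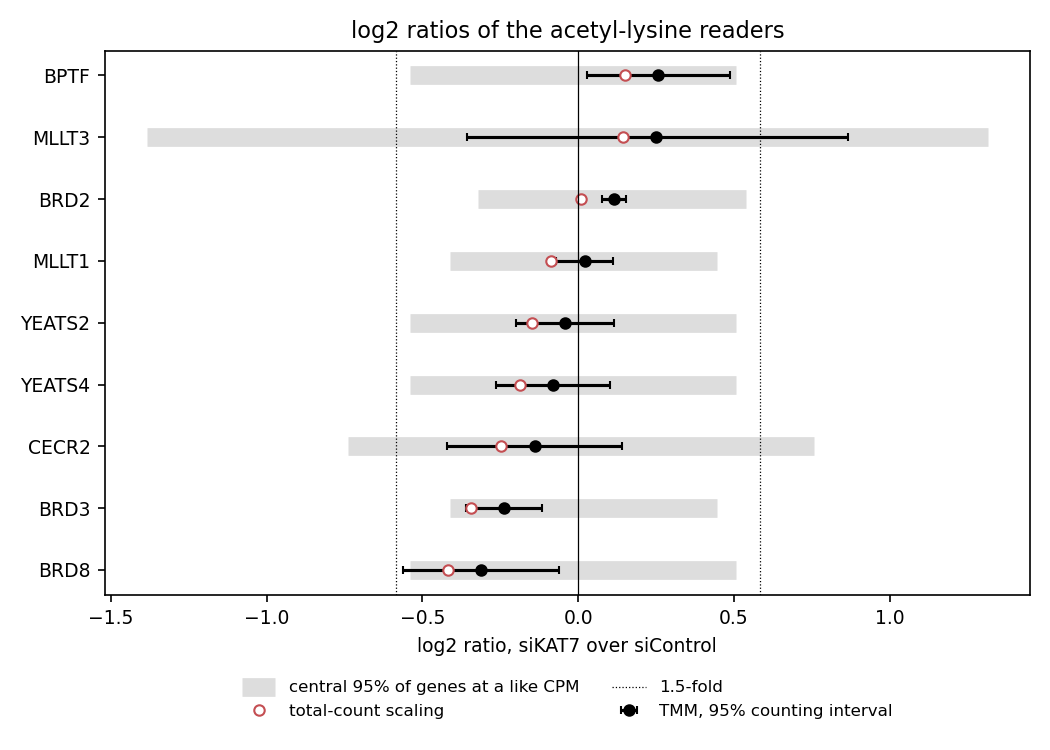
Log2 ratio of siKAT7 over siControl for the 9 readers (x axis), 1 reader per row. Black points are TMM-scaled values with 95% counting intervals, open circles are values with total-count scaling, grey bars are the central 95% of all genes in the same CPM range, and dotted lines mark 1.5-fold. All 9 black points lie inside the dotted lines, from -0.31 for BRD8 to 0.26 for BPTF.

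KAT7 itself was counted at 442.94 (expected counts) in siControl and 287.22 in siKAT7, a log2 ratio of -0.52 (-0.74 to -0.31). The siKAT7 library thus held 69.6% of the control level, and KAT7 did not reach the 1.5-fold limit either, though it passed it with total-count scaling (-0.63, -0.85 to -0.41). No reader had a ratio as low as that of KAT7. Of the 10 genes of KAT7 and its complexes 4 had ratios above 0 and 6 below, with a median of -0.04 and 0 calls. ING4, a subunit that reads methylated H3K4, had 219 and 167 counts and a ratio of -0.29 (-0.59 to 0.0080). Epithelial markers fitted the label of the cells, with EPCAM at 174 CPM in each library and KRT8 at 5720 CPM in siControl and 5871 CPM in siKAT7. All 10 epithelial markers summed to 12469 CPM in siControl and 13390 CPM in siKAT7. CEACAM5 and VIL1 did not pass the filter. The 8 that passed all had log2 ratios above 0, with a median of 0.20 and 0 calls, and with total-count scaling 5 were above 0 and 3 below. The ratios farthest from 0 were those of the tight junction proteins CLDN4 (0.41, 0.38 to 0.44) and CLDN3 (0.41, 0.27 to 0.54). Of 11 markers of other cell types 9 were under the filter, with PTPRC, PECAM1 and ALB at 0 counts in both libraries, and COL1A1 and CD68 passed, with log2 ratios of -0.0043 and 0.17. The sum over the 11 was 113 CPM in siControl and 124 CPM in siKAT7, and the part of either marker list in the readers' values was not tested.

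BRD3 and BRD8 had intervals wholly below 0, and the sequences at their starts are printed here to show what surrounds each start. The windows are from RefSeq on GRCh38.p14 and run from 250 bases before the start to 50 bases after it. Capitals mark matches on either strand to 7 short motifs, chosen after the windows had been read. These are the box of promoters spelled TATAAA, the box spelled CCAAT, the GC box with the letters GGGCGG, the E-box with the letters CACGTG, the cell cycle homology region with the letters TTTGAA, the YY1 motif with the letters AAGATGGC and the ETS motif with the letters CCGGAAG. The BRD8 window is chr5:138178581-138178880 and the BRD3 window is chr9:134067977-134068276, both on the reverse strand.
BRD8: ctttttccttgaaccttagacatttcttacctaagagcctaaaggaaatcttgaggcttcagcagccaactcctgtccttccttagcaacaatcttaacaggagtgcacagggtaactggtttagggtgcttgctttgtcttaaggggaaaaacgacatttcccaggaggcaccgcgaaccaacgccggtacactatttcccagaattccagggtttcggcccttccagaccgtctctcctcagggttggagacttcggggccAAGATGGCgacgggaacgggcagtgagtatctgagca
BRD3: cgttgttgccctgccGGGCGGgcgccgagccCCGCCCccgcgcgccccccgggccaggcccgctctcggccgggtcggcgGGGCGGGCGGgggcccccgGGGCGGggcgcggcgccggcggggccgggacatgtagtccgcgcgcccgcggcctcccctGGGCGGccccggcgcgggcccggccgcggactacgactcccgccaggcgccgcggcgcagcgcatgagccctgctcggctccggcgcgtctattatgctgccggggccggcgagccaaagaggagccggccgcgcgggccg

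The BRD8 window is 51.0% GC and has 1 match, the YY1 letters. Such a match stood in 2.89% of 35116 RefSeq windows of that length, and in 2 of the 11 windows of the readers, the other being a BRD2 start. The BRD3 window is 85.0% GC with 56 CpG pairs, against medians of 58.7% and 14 over all windows, and holds 6 GC box matches, 2 of which overlap. GC boxes stood in 45.0% of all windows and in 6 of the 11 of the readers. No window of a reader held TATAAA or the ETS letters, which stood in 11.5% and 10.3% of all windows. A match is a run of letters and not a binding site. BPTF has no window in that table, and 8 readers together have the 11 windows. Only BRD2 has more than 1, so these are counts of windows and not of genes. As the motifs were chosen after the windows had been read, the shares are no test of enrichment.

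The levels of the readers spread over a wide range. Per kilobase of the deposited gene length, BRD2 had 134 CPM per kb in siControl and 145 in siKAT7, and MLLT3 had 0.275 and 0.326. The order from the highest was BRD2, MLLT1, YEATS4, BRD3, YEATS2, BRD8, CECR2, BPTF and MLLT3, and it was the same in both libraries. Counting intervals of neighbours in that order did not overlap in siControl. In siKAT7 those of CECR2 (1.41 CPM per kb, 1.22 to 1.62) and BPTF (1.30, 1.17 to 1.45) overlapped. Among the 13217 genes averaging 1 CPM or more, BRD2 lay above 94.9% in siControl by this level and MLLT3 above 2.63%.

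**Figure D2:**
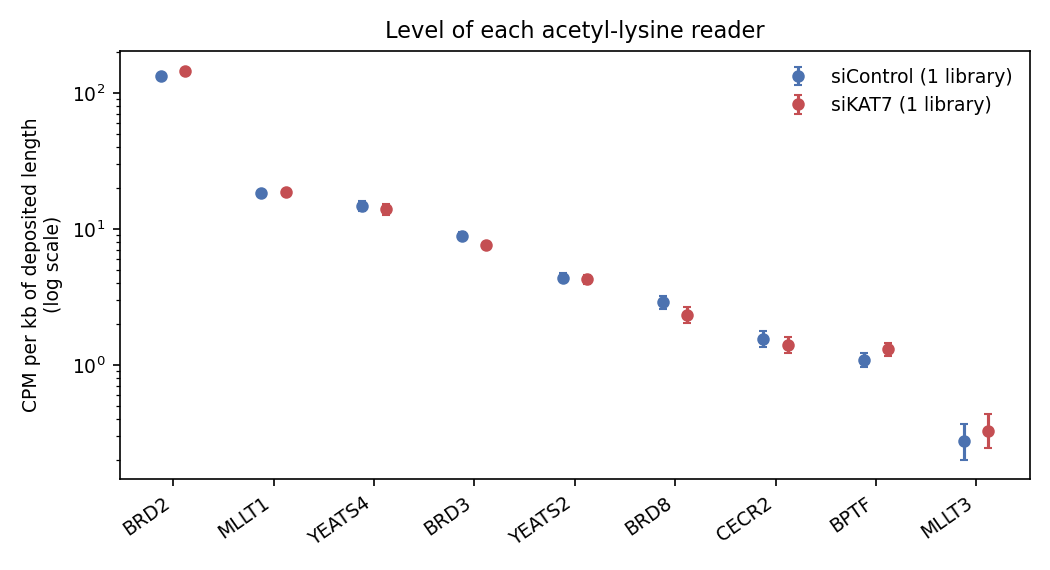
Level of each reader in CPM per kb of deposited gene length (y axis, log scale) in the siControl library (blue) and the siKAT7 library (red), with 95% Poisson counting intervals. BRD2 stands highest at 134 and 145, MLLT3 lowest at 0.275 and 0.326, and the order is the same in both libraries.

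Among the BET genes, BRD2 and BRD3 went opposite ways from 0. BRD2, which binds acetylated histones with paired bromodomains and is expressed in most tissues, had 11313 counts in siControl and 11414 in siKAT7. Its log2 ratio was 0.11 (0.08 to 0.15), or 108% of the control level. This value depends on the scaling: with total counts it was 0.0077 (-0.03 to 0.05). HLA-DMA, on the opposite strand, shares 55 exonic bases with BRD2 and had 392 and 461.69 counts and a ratio of 0.34 (0.14 to 0.54). BRD2 summed with the models that share its exonic bases gave 0.12 (0.09 to 0.16).

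BRD3, the BET protein known for binding acetylated GATA1 in blood cells, was counted at 1231.51 (expected counts) in siControl and 973.64 in siKAT7. The log2 ratio was -0.24 (-0.36 to -0.11), or 84.9% of the control level. It was below 0 with every scaling tried, at -0.25 with DESeq2 size factors and -0.34 with total counts. The counts of BRD3 and BRD2 can be set against each other without any scaling. The ratio of BRD3 to BRD2 was lower in siKAT7 by a log2 difference of -0.35 (-0.48 to -0.22).

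The 3′ end of BRD3 overlaps BRD3OS, a gene on the opposite strand, and this bears on the count. In GENCODE 29 on GRCh38, BRD3 lies at chr9:134030305-134068535 (reverse strand) and BRD3OS at chr9:134025439-134034666 (forward strand). They share 1281 exonic bases, 18.6% of those of BRD3. BRD3OS had 558.49 and 382.36 expected counts and a log2 ratio of -0.44 (-0.64 to -0.25). The ratio of BRD3 to BRD3OS differed between the libraries by 0.21 on the log2 scale, with an interval that included 0 (-0.02 to 0.44). Both models summed gave -0.30 (-0.40 to -0.20). The sources used here do not say whether reads were assigned by strand, and the counts of both genes are not whole, so the division of reads between both genes is uncertain.

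BRD8 and YEATS4 are subunits of the NuA4/TIP60 complex, which acetylates histones H4 and H2A, and YEATS4 also serves the SRCAP remodeller that deposits H2A.Z. BRD8 had 309 counts in siControl and 232 in siKAT7, the lowest ratio of the 9 at -0.31 (-0.56 to -0.06), or 80.6% of the control level. With total-count scaling it was -0.42 (-0.67 to -0.17), and the interval then reached past 1.5-fold. YEATS4, also called GAS41, had 528 and 465 counts and a ratio of -0.08 (-0.26 to 0.10). The ratio of BRD8 to YEATS4 differed by -0.23 (-0.54 to 0.08), which counting error covers.

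In GENCODE 29, BRD8 (chr5:138139766-138178986, reverse strand) overlaps KIF20A, a mitotic kinesin gene on the forward strand, by 268 bases at their 5′ ends. KIF20A starts at 138178719 there, inside the BRD8 window printed above. That window is built on a RefSeq start of BRD8 at 138178630, from which the KIF20A start lies 89 bases upstream. KIF20A had 475 and 429 counts and a ratio of -0.04 (-0.24 to 0.15). The ratio of BRD8 to KIF20A differed by -0.27, with an interval of -0.58 to 0.05 that included 0. The models share 132 exonic bases, and summed they had a ratio of -0.14 (-0.30 to 0.0070), with an interval that included 0. With total-count scaling the sum, more of which is KIF20A, had -0.25 (-0.40 to -0.10).

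BPTF and CECR2 are bromodomain partners of the ISWI motors SMARCA1 and SMARCA5, BPTF in the NURF remodeller and CECR2 in CERF. BPTF had 300 counts in siControl and 334 in siKAT7, the highest ratio of the 9 at 0.26 (0.03 to 0.49). With total-count scaling it was 0.15 (-0.08 to 0.38). CECR2 had 233 and 197 counts and a ratio of -0.14 (-0.42 to 0.14). Set against each other, the ratio of CECR2 to BPTF was lower in siKAT7 by -0.40 (-0.76 to -0.03). Per length CECR2 stood at 1.42 times BPTF in siControl and at 1.08 times in siKAT7.

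MLLT1 (ENL) and MLLT3 (AF9) are paralogues that tie acetylated histones to the super elongation complex and to the H3K79 methyltransferase DOT1L. MLLT1 had 2026 counts in siControl, 1915 in siKAT7 and a ratio of 0.02 (-0.07 to 0.11). With total-count scaling its sign turned, at -0.09 (-0.18 to 0.0045). MLLT3 had 45 and 49.72 expected counts and a ratio of 0.25 (-0.36 to 0.87). The MLLT3 interval runs from 0.781 to 1.83 times the control level. MLLT3 stood at 0.0150 times MLLT1 per length in siControl and 0.0175 times in siKAT7, a log2 difference of 0.23 (-0.38 to 0.85).

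YEATS2, the histone-reading subunit of the ATAC acetyltransferase complex, had 697 counts in siControl and 630.98 in siKAT7. Its ratio was -0.04 (-0.20 to 0.12), or 97.2% of the control level. The antisense gene YEATS2-AS1 shares 1164 exonic bases with it and had 0 and 5.03 counts, and both summed gave -0.03. The ratio of YEATS4 to YEATS2 differed between the libraries by a log2 value of -0.04 (-0.28 to 0.20). Of the 4 YEATS domain genes 2 had ratios below 0, and none had an interval that excluded 0. Of the 5 bromodomain genes 3 were below 0, and 4 had such an interval, BRD3 and BRD8 below 0 and BRD2 and BPTF above. With total-count scaling the intervals of BRD3, BRD8 and YEATS4 lay below 0 and none lay above. An interval wholly below 0 was found for 22.0% of all genes with TMM and 35.6% with total counts, and one wholly above 0 for 23.0% and 13.3%.

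**Figure D3:**
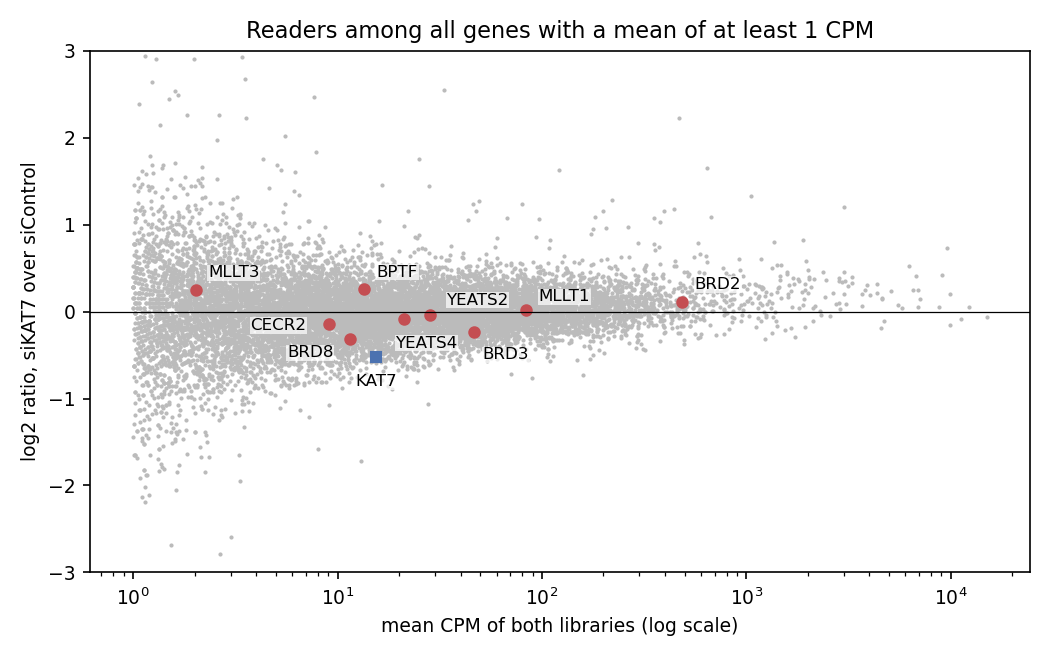
Log2 ratio of siKAT7 over siControl (y axis) against mean CPM of both libraries (x axis, log scale) for genes averaging 1 CPM or more (grey; 21 genes lie beyond the plotted range). Readers are red and KAT7 is a blue square; the readers run from -0.31 to 0.26 and KAT7 lies at -0.52.

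Longer genes had somewhat lower ratios in these libraries, and most readers are long. Among the 2646 genes of the shortest deposited length the median log2 ratio was 0.12, and among the 2644 of the longest it was -0.06. With all genes divided by length into 5 groups of nearly equal size, BRD3, BPTF, MLLT3, YEATS2 and CECR2 are in the longest group, BRD8 and MLLT1 in the next, BRD2 in the middle and YEATS4 in the shortest. The readers lie on 8 chromosomes, with BRD3 and MLLT3 both on chromosome 9. The part of gene length in the readers' ratios was not tested.

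Of the other bromodomain genes 0 were called, beside 3.91% of all genes called higher and 3.91% called lower. Of 37 listed, 32 passed the filter, 15 with ratios above 0 and 17 below, and the median was -0.02. The ratios farthest from 0 among those with at least 100 summed counts belonged to BRD9 and SP100. BRD9, a subunit of the non-canonical BAF remodeller, had 502 and 319.5 counts and a ratio of -0.55 (-0.75 to -0.34), and with total-count scaling it was -0.65 and past the limit. SP100, a nuclear body protein, had 196 and 131 counts and a ratio of -0.48 (-0.81 to -0.15). BRD9 was farther from 0 than any of the 9 readers.

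Partners of the readers were described complex by complex. Beside them, 3.91% of all genes were called higher, 3.91% were called lower and 50.7% had a ratio below 0. Of 10 measured BET partners and P-TEFb genes, 8 had ratios above 0, 0 were called and the median was 0.13, or 0.03 with total counts. JMJD6, a hydroxylase, had 2698 and 3502.95 counts and a ratio of 0.48 (0.41 to 0.55). LARP7, which stabilises the 7SK RNA, had a ratio of -0.45 (-0.87 to -0.04), and CDK9, the kinase of P-TEFb, 0.12 (0.04 to 0.21). With total-count scaling CDK9 had 0.02 (-0.07 to 0.10).

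Of 7 NURF and CERF partners 5 had ratios below 0, 0 were called and the median was -0.09. The histone-binding WD40 proteins RBBP4 and RBBP7 had ratios of -0.44 (-0.54 to -0.35) and -0.26 (-0.37 to -0.15). The motor SMARCA5 had -0.09 (-0.24 to 0.06), which counting error covers with TMM but not with total-count scaling (-0.20, -0.35 to -0.05). In the ATAC complex 1 of 11 measured partners was called, TADA2A, an adaptor of the acetyltransferase KAT2A. TADA2A was lower, with 73 counts in siControl and 36.01 in siKAT7 (log2 ratio -0.91, -1.54 to -0.32). KAT2A and ZZZ3 of the same complex had ratios of 0.04 and 0.12 with intervals that included 0, and the list median was -0.10, or 0.04 over those of at least 10 CPM. TADA2A averaged 2.29 CPM, and of the 2263 genes from 1 to 3 CPM 11.7% were called higher and 12.6% lower. It lay inside the central 95% of log2 ratios in that range, -1.38 to 1.32.

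Of 19 NuA4/TIP60 and SRCAP partners 7 had ratios above 0 and 12 below, with a median of -0.06. The 1 called was ING3, a reader of methylated H3K4, which was higher on 37 and 56 counts (0.69, 0.08 to 1.34). It was not called with total-count scaling. ING3 was in the same CPM range as TADA2A and also inside its central 95%. The acetyltransferase KAT5 had a ratio of -0.01 (-0.11 to 0.08), and the large scaffolds EP400 and TRRAP had -0.10 and -0.13. VPS72, the H2A.Z-binding subunit, had 0.15 (0.07 to 0.24). With total-count scaling the interval of VPS72 included 0 and that of KAT5 lay below 0.

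For the super elongation and DOT1L complexes 13 genes were measured, 7 with ratios above 0 and 6 below, and 0 were called. ELL2, an elongation factor, had 0.28 (0.09 to 0.47), and the scaffolds AFF4 and AFF1 had -0.22 (-0.45 to 0.0045) and -0.10 (-0.28 to 0.07). DOT1L had 0.01 (-0.05 to 0.08). With total-count scaling the interval of ELL2 included 0, and those of AFF4, AFF1 and DOT1L lay below 0. The medians of all 7 lists in the plot of readers and partners beside that of the readers lay between -0.10 and 0.13, against -0.0049 for all genes.

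**Figure D4:**
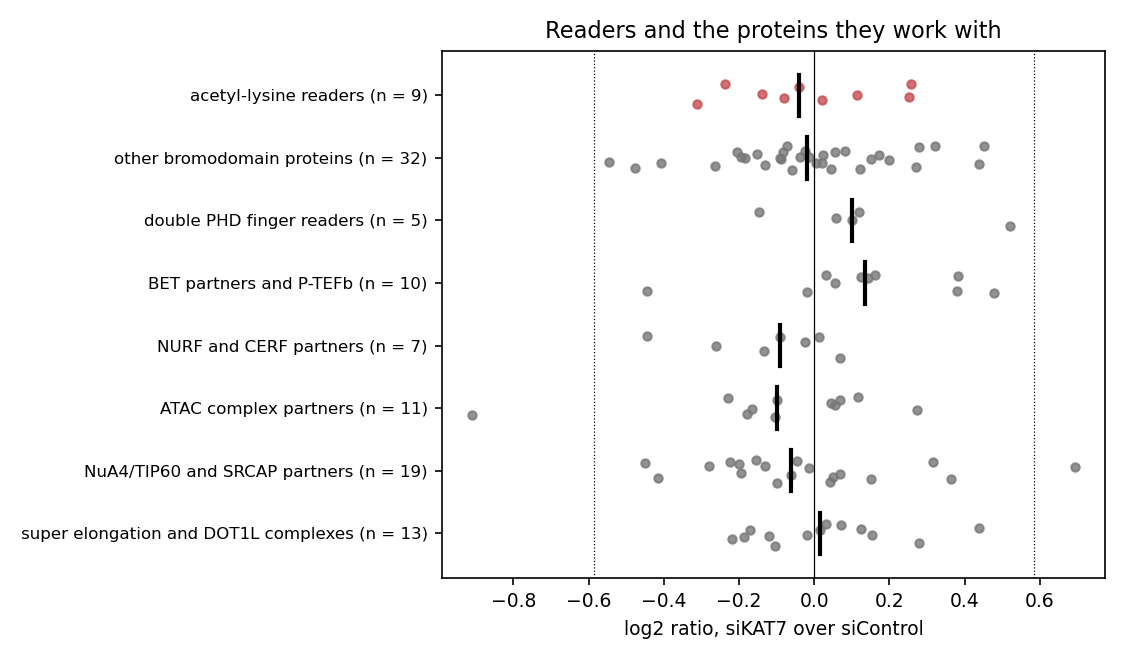
Log2 ratio of siKAT7 over siControl (x axis) for the readers (red) and 7 lists of related genes (grey), 1 point per gene averaging 1 CPM or more; black bars are list medians and dotted lines mark 1.5-fold. TADA2A (-0.91) and ING3 (0.69) are the points beyond the dotted lines.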

How the data were processed

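RNA-seq of 1 siControl and 1 siKAT7 culture of HCT116 was used. The deposited table holds expected counts per gene, which the authors estimated with RSEM 1.3.3 on GRCh38.p13 per the submitters' processing notes. The sources used here name no aligner, annotation release or strand setting. The table repeats both count columns with 0 differing cells, and each was used once. The 331 unnamed rows, 1.11% of counts in siControl and 1.67% in siKAT7, were left out. A second deposited table gives the authors' fold (ratio), log2 fold, p-value and gene length. From it only the log2 fold was used, as an alternative, since its p-value sets 1 library against another and not the conditions.

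Named genes summed to 23450331 and 23533186 expected counts. Counts were rounded and scaled by TMM (edgeR 4.0.16, R 4.3.3; factors 1.04 and 0.964). Log2 ratios used a prior count of 0.5. Intervals are exact Clopper-Pearson 95% intervals of the split of a gene's counts, and those of ratios between genes are exact conditional odds ratio intervals. Levels carry exact Poisson intervals. Reads carry no molecular identifiers, so PCR copies count as separate molecules. Genes averaging 1 CPM or more were kept, and calls needed 1.5-fold and an interval without 0. The procedure was first tested on simulated counts with counting error only and planted changes well past 1.5-fold. That test does not cover changes near the limit or the spread between cultures. Alternatives were total-count scaling, DESeq2 1.42.0 size factors, a prior count of 5, other filters and fold limits, unnamed loci in the library sizes, and summed overlapping models.

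The readers and the lists were chosen with earlier results of these data known. Ratios between genes, counts of intervals within 1.5-fold, groups by length and by CPM, promoter motifs and lists from the deposited domain annotation were chosen after seeing the data. Named genes were the 9 readers, KAT7, models overlapping a reader, fixed anchors of each complex, called list members, and otherwise the 2 members of a list farthest from 0 with at least 100 summed counts. Of the 16 other models overlapping a reader 2 had any counts, and these are not named. An anchor is not reported here. Positions and overlaps came from GENCODE 29 on GRCh38 and promoter windows from RefSeq on GRCh38.p14, which may differ from the authors' annotation.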

Additional observations from a re-analysis of the deposited data

How the results depend on the processing

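No paired analysis was possible because each group has 1 library. The counts of 0 readers higher and 0 lower at 1.5-fold held under each alternative that could have added a call. These were total-count scaling, DESeq2 size factors, a limit below 1.5-fold, summed overlapping models and unnamed loci in the library sizes. The log2 folds of the authors' deposited table also gave 0 and 0. The other settings could not add a call, so their counts of 0 say nothing about stability. A 10 CPM filter, a 2-fold limit and an interval wholly past the limit can only remove calls. Leaving out the filter added no reader, as all 9 passed it. With a prior count of 5 no ratio of a reader moved away from 0. The median of the readers ran from -0.03 (overlapping models summed) to -0.15 (total-count scaling and the authors' deposited table). Total-count scaling moved each ratio by -0.11 and the median of all genes to -0.11; calls over all genes were then 359 higher and 838 lower, in place of 517 and 517. The NuA4/TIP60 and SRCAP median was -0.17 with total-count scaling and -0.17 in the authors' deposited table, and the median of the epithelial markers, 0.20 by TMM, was 0.10 in both. MLLT1 turned from 0.02 to -0.09 under both, and 3 readers in place of 4 were above 0. Medians of other lists changed sign as well: ATAC partners to 0.04 at 10 CPM, the super elongation and DOT1L genes from 0.01 to -0.09 with total counts and -0.04 at 10 CPM, and with total counts the double PHD finger readers to -0.0051, the genes dependent on BET or YEATS readers from 0.0096 to -0.10 and the markers of other cell types from 0.08 to -0.02. All 9 readers passed the filter, so their median without it was the same. Summed models and unnamed loci as alternatives for the counts and medians of the readers, limiting the sum to models that share exon bases, that sum with total counts, and the alternatives for the lists were chosen after seeing the data. Depth limits MLLT3 most, and the spread between cultures is unknown.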

Other observations

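Readers with a double PHD finger, a further fold that binds acetylated histone H3, were measured for 5 genes. Ratios were above 0 for 4 of them, with a median of 0.10 (-0.0051 with total-count scaling) and 0 calls. DPF3, a BAF subunit, had 47 counts in siControl, 63 in siKAT7 and a log2 ratio of 0.52 (-0.04 to 1.10). KAT6A, an acetyltransferase of the MYST family like KAT7, had 353 and 297 counts and a ratio of -0.15 (-0.37 to 0.08).

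Genes known from other cancer cells to depend on BET or YEATS readers had a median of 0.0096 over 10 measured, 5 above 0 and 5 below, with 0 calls. FOSL1, an AP-1 subunit, had 5040 and 6316 counts and a ratio of 0.43 (0.37 to 0.48). CCND1, the G1 cyclin D1, had 10267.03 and 7563.52 expected counts and a ratio of -0.34 (-0.38 to -0.30). HEXIM1, a list member named after its values were seen, is an inhibitor of P-TEFb whose transcript is known to rise when BET proteins are inhibited. The list thus mixes directions, and its median has no single expected sign. HEXIM1 had 2351 and 2419 counts and a ratio of 0.14 (0.06 to 0.23), or 0.04 with total-count scaling. MYC, in the same list and also named after its values were seen, had -0.05 (-0.09 to 0.0001), or -0.15 with total-count scaling. The part of reader activity in these ratios was not tested.

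By the deposited domain annotation, 40 rows carry a bromodomain and 4 a YEATS domain. Of the 35 bromodomain rows that passed the filter 17 had ratios above 0 and 18 below, with a median of -0.02.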
